A study of Homo sapiens with 12 samples.

Results

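The interferon-response genes examined here are 48 human genes that are known targets of interferon signalling. They were chosen by name, with earlier results of these data known, and grouped by what their proteins do. Of these, 46 had a probe set of their own on the array and were followed through all groups, out of 18417 genes measured in that way. STAT2 and GBP1 were not analysed here, because no probe set carries either symbol alone. Each of the 46 genes was read from 1 probe set, so no choice among probe sets entered their values.

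RNA was measured in 4 groups of a subline of MDA-MB-231, a human breast cancer line of the mesenchymal, hormone-receptor-negative type, selected for its spread to bone and given the number 1833 in the cell line field. The shHMGA2 cells (3 arrays) carried an shRNA against HMGA2, a chromatin protein of embryonic and tumour cells, in the lentiviral vector pLKO.1 and were selected with puromycin. The Tet1 cells (2 arrays) expressed Flag-tagged Tet1, an enzyme that oxidises methylated cytosine in DNA, and the HOXA9 cells (2 arrays) expressed HOXA9, a homeobox transcription factor. Both of these lines used the inducible vector pLVX-TRE3G with the Tet-On 3G regulator, puromycin and G418 selection, and tetracycline-approved serum in place of ordinary fetal bovine serum. For the Tet1 and HOXA9 cells the source name field has the number 1834 instead. Control cells (3 arrays) were of the 1833 subline. The sources used here do not name an empty vector for the control cells or an inducer for the Tet1 and HOXA9 cells. The samples are called biological replicates in the labels, but nothing says whether a line was 1 clone or a pool. Replicate 3 of Tet1 and of HOXA9 equalled the mean of the other 2 columns of its group and was left out, which leaves 10 independent arrays.

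Interferons are secreted proteins that cells release on sensing viral nucleic acids. They bind receptors on neighbouring cells and act through JAK kinases, and the factor ISGF3, of which IRF9 is a part, then binds a DNA element called the interferon-stimulated response element (ISRE) in the promoters of target genes. The targets hold viral RNA, block virus entry and budding, tag proteins with ISG15 and raise the cell's own sensors, and many tumour lines express a part of this programme with no virus present. RNA levels of many of these genes therefore tend to move together in a cell population.

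The response element was common in the promoters of these genes. RefSeq promoter windows on build GRCh38.p14, running from 250 bases before to 50 bases after a transcript start, were available for 41 of the 48 genes. They were searched on both strands for GAAA, any 2 bases and GAAA again, a core form of the ISRE whose matches may overlap, and 28 of the 41 genes (68.3%) held at least 1 match, against 4.38% of the 27305 genes with such a window. The element TTCNNNGAA, searched in the same way, known as GAS, was held by 13 of the 41 genes (31.7%), against 9.38% of genes. USP18, OASL, OAS2, IFIT2, TRIM22, IRF7 and MX2 had no window. A match is a description of letters and does not show that a factor binds.

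Promoter stretches are shown for 9 genes, from 150 bases before to 10 bases after the start, 5′ to 3′ on the strand of the gene, with the ISRE matches in capitals. For a gene with several starts, the stretch with the most matches was taken. PARP9 also has a start whose window held 0 matches. The 3 neighbouring pairs IFIT1 and IFIT5, PARP9 and DTX3L, and DDX60 and DDX60L are shown because the members of each pair carry the element yet differed in the direction of their change in Tet1 and HOXA9 cells. IFI44 is shown for the largest fall in shHMGA2, IFI27 for the largest rise in HOXA9, and BST2 because its change was among the larger ones in all 3 changed groups. IFIT1 lies at chr10:89392473-89392632 on the plus strand and IFIT5 at chr10:89414418-89414577 on the plus strand. PARP9 lies at chr3:122564291-122564450 on the minus strand and DTX3L at chr3:122564188-122564347 on the plus strand. DDX60 lies at chr4:168318743-168318902 and DDX60L at chr4:168480483-168480642, both on the minus strand. IFI44 lies at chr1:78649639-78649798 on the plus strand, BST2 at chr19:17405621-17405780 on the minus strand and IFI27 at chr14:94110586-94110745 on the plus strand.
IFIT1: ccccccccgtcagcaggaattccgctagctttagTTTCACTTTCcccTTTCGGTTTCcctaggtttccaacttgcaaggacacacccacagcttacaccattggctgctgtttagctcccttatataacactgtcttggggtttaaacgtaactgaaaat
IFIT5: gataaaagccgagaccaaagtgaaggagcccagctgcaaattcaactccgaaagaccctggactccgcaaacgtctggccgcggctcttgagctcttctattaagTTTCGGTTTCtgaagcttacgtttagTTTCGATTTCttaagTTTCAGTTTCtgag
PARP9: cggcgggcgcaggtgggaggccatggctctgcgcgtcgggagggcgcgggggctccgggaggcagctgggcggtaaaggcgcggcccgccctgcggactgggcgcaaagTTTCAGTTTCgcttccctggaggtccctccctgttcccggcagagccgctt
DTX3L: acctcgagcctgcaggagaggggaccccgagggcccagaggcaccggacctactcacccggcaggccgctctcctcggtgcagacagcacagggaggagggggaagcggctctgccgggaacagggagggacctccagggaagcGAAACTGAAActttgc
DDX60: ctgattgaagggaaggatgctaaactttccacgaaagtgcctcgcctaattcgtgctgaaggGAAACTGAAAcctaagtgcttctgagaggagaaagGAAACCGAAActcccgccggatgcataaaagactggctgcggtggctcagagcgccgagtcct
DDX60L: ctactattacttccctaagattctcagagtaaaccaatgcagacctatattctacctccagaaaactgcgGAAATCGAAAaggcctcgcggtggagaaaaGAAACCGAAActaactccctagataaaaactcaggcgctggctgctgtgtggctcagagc
IFI44: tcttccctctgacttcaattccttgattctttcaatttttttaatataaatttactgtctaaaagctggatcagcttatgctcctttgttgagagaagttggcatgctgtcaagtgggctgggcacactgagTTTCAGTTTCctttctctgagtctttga
BST2: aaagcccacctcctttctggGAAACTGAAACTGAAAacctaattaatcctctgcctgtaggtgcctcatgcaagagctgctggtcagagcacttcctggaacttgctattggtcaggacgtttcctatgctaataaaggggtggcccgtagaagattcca
IFI27: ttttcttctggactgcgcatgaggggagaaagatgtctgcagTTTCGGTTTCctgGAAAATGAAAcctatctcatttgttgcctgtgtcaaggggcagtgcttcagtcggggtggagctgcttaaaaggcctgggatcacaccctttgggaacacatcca
The divergent genes PARP9 and DTX3L shared the same match, at chr3:122564332-122564341, which reads TTTCAGTTTC on the PARP9 strand and GAAACTGAAA on the DTX3L strand. IFIT5, which was lower than control in all 3 changed groups, held 3 matches, and IFIT1, which was higher in Tet1 and HOXA9 cells, held 2.

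The deposited values are log2 expression levels, so a difference of 1 is a 2-fold change, and all levels and differences below are on that scale. A gene was called higher or lower at an adjusted p under 0.05 in limma, with Benjamini-Hochberg adjustment over all 18417 genes. The arrays fell into 2 sets, with correlations of 0.986 to 0.998 within control and shHMGA2, 0.993 to 0.997 within Tet1 and HOXA9, and 0.945 to 0.966 between the sets. The lower quartile of all probe sets was 6.22 to 6.25 on the Tet1 and HOXA9 arrays and 5.75 to 5.76 on the shHMGA2 and control arrays. Each group lay in 1 set, so array set, parent subline, serum, selection and construct cannot be told apart in any comparison of Tet1 or HOXA9 with control. For comparisons across the sets, 4 scalings of the arrays were tried: the deposited one, 1 quantile normalization, equal medians over all probe sets and equal medians over the named genes. A rise, a fall or a gene not called refers to the deposited scaling unless another is named. The levels of VIM, CD44, CAV1, ANXA1 and MSN, markers of this line, averaged 12.4 to 13.6 in every group. SPARC, another mesenchymal marker, averaged 5.91 in shHMGA2 and 6.04 in control, below the 30th percentile of probe sets (6.26). SPARC was not below it in Tet1 or HOXA9. Of the 8 mesenchymal and basal markers followed, 5 rose and 3 fell in Tet1 and 4 rose and 3 fell in HOXA9. Over all genes 53.9% rose and 23.2% fell in Tet1, and 54% and 21.6% in HOXA9. ESR1 and PGR averaged 5.53 to 6.96. The log2 of the summed level of the 8 luminal and hormone receptor markers was 11.70 to 12.30, so others of the 8 were higher.

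**Figure D1:**
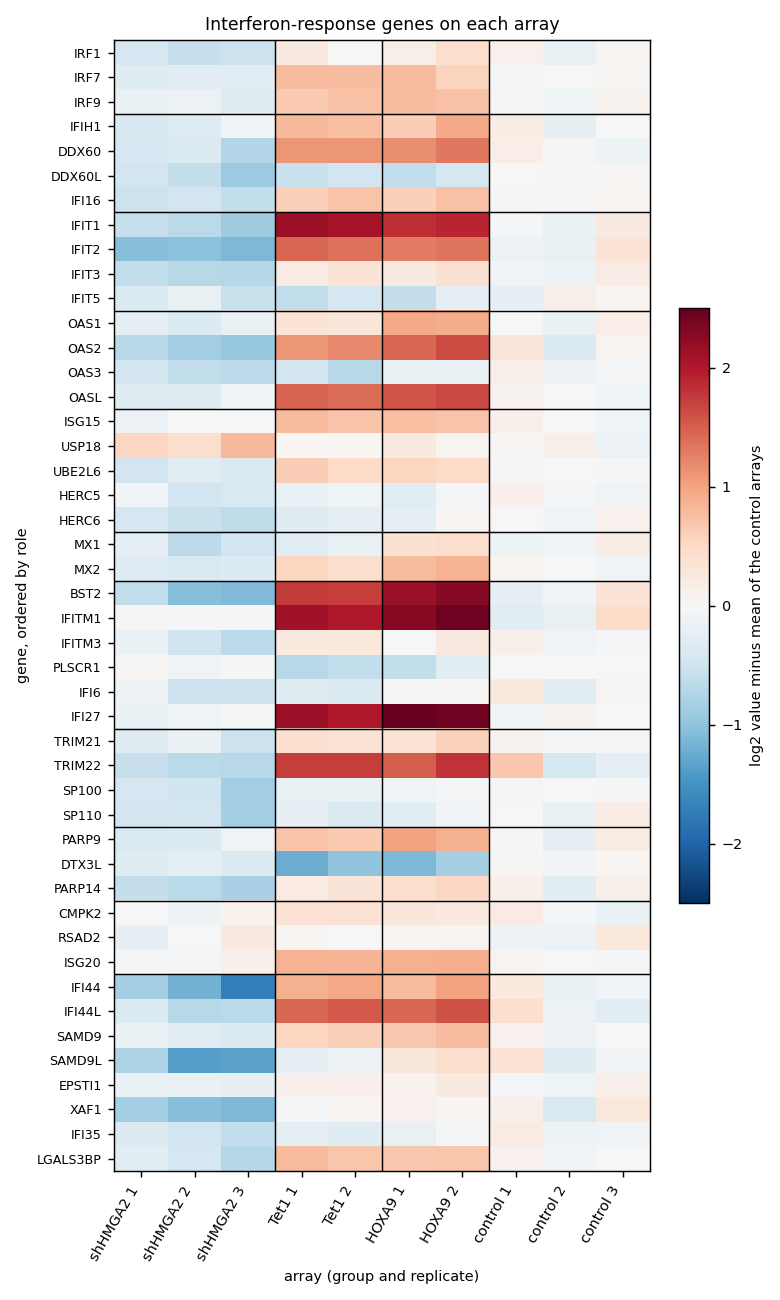
Each row is an interferon-response gene, ordered by role, and each column an array, with shHMGA2, Tet1, HOXA9 and control arrays from left to right. Colour gives the log2 level minus the mean of the 3 control arrays, red for higher and blue for lower. Most rows are blue in the shHMGA2 columns and red in the Tet1 and HOXA9 columns, with DTX3L, DDX60L and IFIT5 blue in all 3 groups.

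In shHMGA2 cells most interferon-response genes were lower than in control cells. Of the 46 measured genes, 35 fell, 1 (USP18) rose and 10 passed in neither direction, whereas 12.6% of all genes fell and 13.6% rose. The median difference was -0.42 over the 46 genes and -0.03 over all genes. The mean level over the 46 genes was 7.89, 7.80 and 7.75 on the shHMGA2 arrays, against 8.31, 8.14 and 8.28 on the control arrays, so the groups did not overlap. The falls were mostly small: 4 of the 46 genes fell at least 2-fold, as did 0.353% of all genes. All 35 falls and the rise of USP18 were called under each of the 4 scalings, and 24 of the 35 in each of the 6 fits that left out 1 array of these groups. A fit of these 2 groups alone ended 7 of the 35 calls. In cultured cells a lower level may mean less RNA per cell or fewer cells that make it, and the arrays cannot tell these apart.

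Markers of other cells moved in the same comparison, in which 13.6% of all genes rose and 12.6% fell. Of 9 genes listed as traits of HEK293, a kidney-derived line, 5 rose and 0 fell in shHMGA2 cells. The list is not of kidney genes alone, since it also holds HOXD10 and the neuronal genes NEFM and NEFL. HOXD10 stood at 10.42 in shHMGA2 and 5.95 in control. The defining kidney markers PAX2 (6.84 in shHMGA2, 6.93 in control) and LHX1 (6.56 in shHMGA2, 6.46 in control) passed in neither direction. The log2 of the summed level of the 9 genes was 11.36 to 11.74 in shHMGA2 and 9.96 to 10.08 in control. In Tet1 6 of the 9 rose and 1 fell, and in HOXA9 5 rose and 2 fell, where 53.9% and 54% of all genes rose. Their summed level was 10.37 to 10.41 in Tet1 and 10.26 to 10.40 in HOXA9. All 3 genes of the 9p21 stretch that MDA-MB-231 is known to lack rose in shHMGA2, and their summed level was 10.27 to 10.77 in shHMGA2 and 8.53 to 8.75 in control. Of 8 mesenchymal and basal markers of MDA-MB-231, 5 fell in shHMGA2, with a summed level of 15.19 to 15.39 in shHMGA2 and 15.53 to 15.55 in control. Replicate 3 of shHMGA2 had the highest HEK293 trait and 9p21 sums, the lowest mesenchymal sum and the lowest mean over the interferon-response genes. The part of these markers' cells in the lower interferon-response levels was not tested.

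The largest fall in shHMGA2 was that of IFI44, an interferon-induced cytoplasmic protein. Its level was 7.60, 7.24 and 6.73 on the shHMGA2 arrays, against 8.67, 8.26 and 8.36 on the control arrays. All 3 shHMGA2 arrays lay below all 3 control arrays, as for 32 of the 46 genes and 3992 of all 18417 genes. Replicate 3 was the lowest. The difference was -1.24 (SE 0.18, 95% interval -1.63 to -0.85), a 2.36-fold fall with an adjusted p of 0.00036 in limma. SAMD9L, which restrains cell growth and viral replication, stood at 8.67, 8.07 and 8.11 in shHMGA2 and at 9.81, 9.16 and 9.38 in control. It fell by 1.16 (SE 0.17, adjusted p = 0.000397 in limma), with no overlap between the groups. XAF1, which counters the apoptosis inhibitor XIAP, stood at 7.58, 7.38 and 7.33 in shHMGA2 and at 8.57, 8.06 and 8.70 in control. It fell by 1.01 (SE 0.13, adjusted p = 0.000205 in limma), and its highest shHMGA2 array lay below its lowest control array.

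The IFIT genes code for proteins that bind RNA with foreign-type ends and stop its translation, and all 4 of them fell in shHMGA2. IFIT2 stood at 6.81, 6.86 and 6.77 in shHMGA2, against 7.74, 7.70 and 8.23 in control. Its fall of 1.07 (SE 0.11, adjusted p = 3.84e-05 in limma) had the lowest adjusted p of the 46 genes in this comparison. IFIT1 stood at 7.29, 7.19 and 6.99 in shHMGA2 and at 7.82, 7.70 and 8.09 in control, a fall of 0.71 (SE 0.10, adjusted p = 0.000325 in limma). IFIT3 fell by 0.67. IFIT5 fell by 0.36 with overlapping groups, and its call was lost without control replicate 2 or 3 and without shHMGA2 replicate 1 or 3 (adjusted p 0.0823 to 0.165 in limma).

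Among the oligoadenylate synthetases, which make the messenger that switches on the RNA-cutting enzyme RNase L, all 4 fell in shHMGA2. OAS2 stood at 7.27, 7.11 and 7.03 in shHMGA2 and at 8.28, 7.62 and 8.03 in control. Its fall of 0.84 (SE 0.13, adjusted p = 0.00079 in limma) was followed by falls of 0.57 for OAS3, 0.25 for OAS1 and 0.23 for OASL. OASL, a relative that has lost the enzyme activity, had overlapping groups, and its call ended without control replicate 1 or 2 or shHMGA2 replicate 1 or 2. The call of OAS1 ended without control replicate 1 or 3 or shHMGA2 replicate 1 or 2.

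The ISG15 system, in which a ubiquitin-like protein is attached to other proteins, did not move as 1 block in shHMGA2. The conjugating enzyme UBE2L6 fell by 0.36, the ligase HERC5 by 0.31 and its relative HERC6 by 0.54. ISG15 itself differed by -0.04 (95% interval -0.20 to 0.11). USP18, the protease that removes ISG15 and that also blocks signalling at the receptor chain IFNAR2, was the only member that rose. Its level was 8.03, 7.93 and 8.31 in shHMGA2, against 7.53, 7.63 and 7.35 in control. Every shHMGA2 array lay above every control array, and the difference was 0.59 (SE 0.10, 95% interval 0.38 to 0.80, adjusted p = 0.000953 in limma). HERC5 had overlapping groups and lost its call without any of the control arrays or without shHMGA2 replicate 2 or 3.

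BST2, known as tetherin, which holds budding virus particles at the cell surface, stood at 7.07, 6.62 and 6.59 in shHMGA2 and at 7.45, 7.62 and 8.0 in control. It fell by 0.93 (SE 0.14, adjusted p = 0.00059 in limma), with no overlap. Other membrane proteins differed among themselves. The virus entry blocker IFITM3 fell by 0.44 and IFI6 by 0.39, while its relative IFITM1 differed by -0.01 (95% interval -0.34 to 0.32), IFI27 by -0.10 (-0.25 to 0.04) and the lipid scramblase PLSCR1 by -0.04 (-0.21 to 0.13). IFITM1 depended on control replicate 3, which stood at 9.62 beside 8.87 and 8.97. Without that array IFITM1 was 0.22 higher in shHMGA2 (adjusted p = 0.0445 in limma). The call of IFI6 ended without control replicate 1 or 3 or shHMGA2 replicate 2 or 3.

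All 3 measured transcription factors fell in shHMGA2: IRF1 by 0.50, IRF7, the main amplifier of interferon transcription, by 0.29, and IRF9, the DNA-binding part of ISGF3, by 0.21. IRF9 lost its call without control replicate 1 or 3 or shHMGA2 replicate 1 or 3. Among the sensors and helicases, DDX60L fell by 0.66, the DNA sensor IFI16 by 0.53 and the helicase DDX60 by 0.50, and IFIH1, the sensor MDA5 of long viral RNA, differed by -0.27 (95% interval -0.52 to -0.03, adjusted p = 0.0958 in limma). Without control replicate 2, IFIH1 was called. The dynamin-like GTPases MX1 and MX2, which trap viral particles, fell by 0.46 and 0.35. Of the nuclear body proteins SP100 and SP110 fell by 0.60 and 0.59, and the ubiquitin ligases TRIM22 and TRIM21 by 0.65 and 0.33. In control, TRIM22 stood at 7.11 in replicate 1 beside 6.01 and 6.22. Without control replicate 1 TRIM22 fell by 0.32 and stayed called, while leaving out any 1 of the 3 shHMGA2 arrays ended the call. The call of TRIM21 ended without control replicate 1 or shHMGA2 replicate 3.

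PARP14, which attaches single ADP-ribose units to proteins, stood at 8.16, 8.08 and 7.94 in shHMGA2 and at 8.89, 8.50 and 8.87 in control. It fell by 0.69 (SE 0.10, adjusted p = 0.000374 in limma), with no overlap. DTX3L, a ubiquitin ligase, fell by 0.29, a call that ended without control replicate 1 or 3 or shHMGA2 replicate 1 or 3, and its partner PARP9 differed by -0.27 (adjusted p = 0.0709 in limma) and was called without control replicate 2 or shHMGA2 replicate 3. Of the other effectors, IFI44L fell by 0.57, IFI35 by 0.48, the secreted glycoprotein LGALS3BP by 0.47 and SAMD9 by 0.26. IFI44L fell by 0.36 without control replicate 1, still with a call, and lost its call without shHMGA2 replicate 2 or 3, and SAMD9 without control replicate 1 or shHMGA2 replicate 2 or 3. The nucleotide and RNA enzymes CMPK2, RSAD2 (viperin, which makes a chain-ending nucleotide) and the exonuclease ISG20 differed by -0.01 to 0.02, and EPSTI1 by -0.18, with a call without control replicate 2. RSAD2 and EPSTI1 lay below the 30th percentile of probe sets (6.26) in all 4 groups, so they are not known to be above background. The means of MX2 (5.97), TRIM22 (5.80) and IFI44L (6.06) were below it in shHMGA2, and that of IFIH1 in both shHMGA2 (5.96) and control (6.23), so the sizes of their differences are uncertain.

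**Figure D2:**
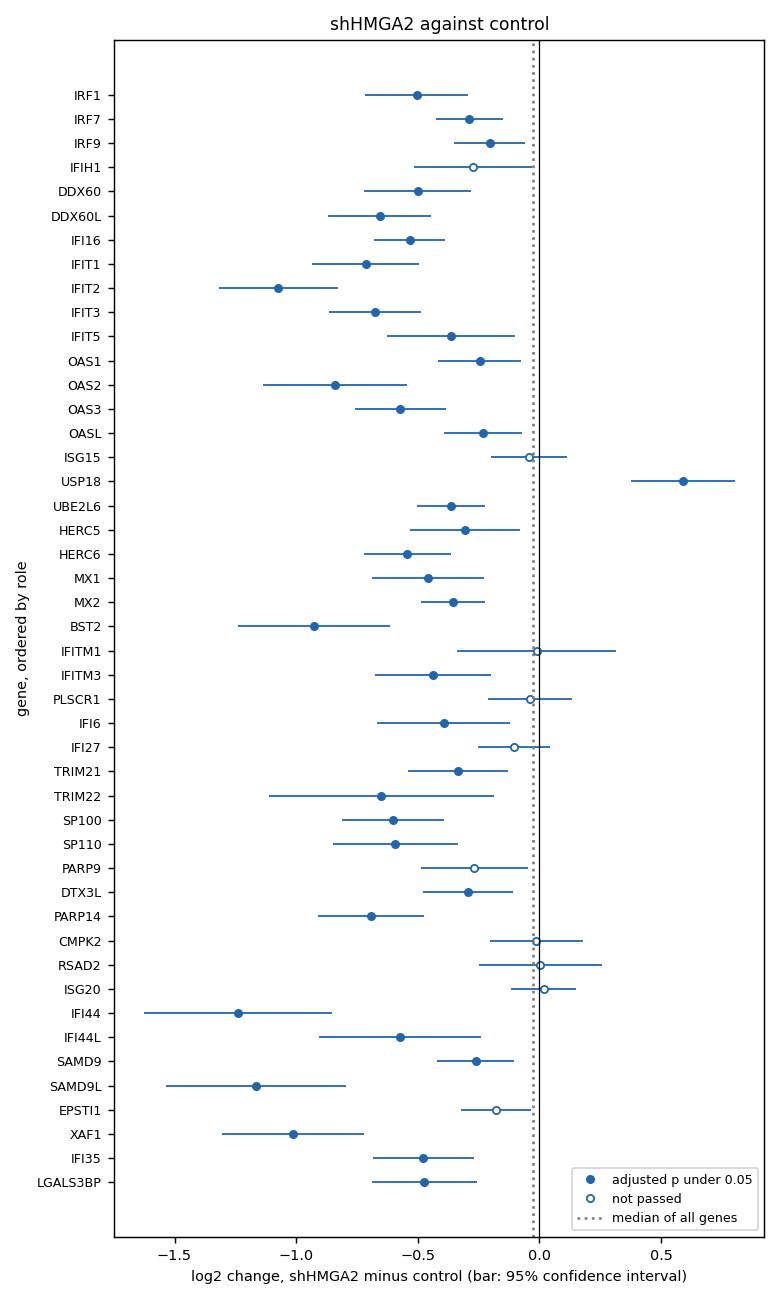
Points give the log2 difference of shHMGA2 minus control for each of the 46 measured genes, with bars for the 95% interval of the limma fit, and filled points for genes called at an adjusted p under 0.05. The values run from -1.24 for IFI44 to 0.59 for USP18, and only USP18 was called on the right of 0.

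The rest of the pathway showed where else shHMGA2 differed from control, in a comparison in which 13.6% of all genes rose and 12.6% fell. Of 16 measured interferon genes, 0 rose and 0 fell, with a median difference of -0.05, but 13 of the 16 lay below the 30th percentile of probe sets in both groups, so a change in them could be missed. Among 17 receptor and JAK-STAT genes 3 rose (17.6%) and 4 fell (23.5%). IFNAR2, a chain of the type I interferon receptor, rose by 0.73 (7.78 in shHMGA2, 7.05 in control, adjusted p = 5.19e-05 in limma), and the feedback inhibitor SOCS3 fell by 0.36. Of 19 sensing genes 1 rose and 11 fell, led by TLR4, the receptor for bacterial lipopolysaccharide (9.20 in shHMGA2, 10.43 in control), and TLR3, a receptor for viral RNA (8.27 in shHMGA2, 9.08 in control). Of 15 antigen presentation genes 0 rose and 11 fell, with a median of -0.46. The immunoproteasome subunit PSMB9 and the peptide-trimming enzyme ERAP1 each fell by 0.66. Of 46 other interferon-stimulated genes 1 rose and 18 fell, led by the GTPase GBP2, which fell by 1.47, and the DNA-editing enzyme APOBEC3G, which fell by 0.92. GBP2 stood at 5.85 in shHMGA2 and 7.32 in control and APOBEC3G at 6.16 in shHMGA2 and 7.08 in control, so both were below the 30th percentile of probe sets in shHMGA2.

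In Tet1 cells most interferon-response genes were higher than in control cells, but so were most genes on the array. At the deposited scaling 26 of the 46 genes rose (56.5%) and 7 fell (15.2%). Over all genes 53.9% rose and 23.2% fell, so at this scaling the share of rises was near that of all genes. The median difference was 0.37 over the 46 genes and 0.25 over all genes. At the deposited scaling 10 of the 46 genes rose at least 2-fold, whereas 6.44% of all genes rose that far. In HOXA9 cells 29 rose (63.0%) and 4 fell (8.70%), against 54% and 21.6% of all genes, with medians of 0.49 and 0.24, and 10 rose at least 2-fold against 5.6% of all genes. The mean level over the 46 genes was 8.72 and 8.71 in Tet1, 8.80 and 8.90 in HOXA9, and 8.31, 8.14 and 8.28 in control. Both comparisons use the same control arrays.

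The count of rises moved with the scaling of the arrays. Under 1 quantile normalization 20 genes rose (43.5%) and 12 fell (26.1%) in Tet1, against 32.6% and 33.3% of all genes. In HOXA9 23 rose (50.0%) and 10 fell (21.7%), against 29.7% and 34% of all genes. With equal medians over all probe sets, 15 rose (32.6%) and 18 fell (39.1%) in Tet1, against 21.9% and 51.4% of all genes. In HOXA9 20 rose (43.5%) and 16 fell (34.8%), against 20.3% and 51.1%. The medians over all genes under this scaling were -0.22 in Tet1 and -0.21 in HOXA9. With equal medians over the named genes, a scaling chosen after seeing the data, 22 rose (47.8%) and 15 fell (32.6%) in Tet1. Over all genes 32.1% rose and 41.6% fell. In HOXA9 23 rose (50.0%) and 10 fell (21.7%), against 30.1% and 40.3%. Under all 4 scalings 14 genes rose in both Tet1 and HOXA9: BST2, DDX60, IFI27, IFI44L, IFIT1, IFIT2, IFITM1, IRF7, IRF9, ISG15, ISG20, OAS2, OASL and TRIM22. In HOXA9 a further 5 did (IFI16, MX2, OAS1, PARP9 and SAMD9). DDX60L, IFIT5, PLSCR1 and DTX3L fell in both groups under all 4 scalings, and OAS3, HERC6 and IFI35 fell in Tet1 under all 4. At the deposited scaling 9 of 9 immune cell markers were higher in Tet1 and 8 of 9 in HOXA9, where 53.9% and 54% of all genes rose. The median difference of these markers was 0.40 in Tet1 and 0.30 in HOXA9, against 0.25 and 0.24 over all genes. These markers were dim, with means of 6.19 to 6.25 on the control arrays, and were not set against genes of like level. The lower quartile of all probe sets was 6.22 to 6.25 on the Tet1 and HOXA9 arrays and 5.75 to 5.76 on the control arrays. The log2 of the summed level of these markers was 9.97 to 10.03 in Tet1, 9.87 to 9.93 in HOXA9 and 9.51 to 9.60 in control. The defining marker PTPRC (CD45) averaged 5.22 in Tet1, 5.21 in HOXA9 and 4.91 in control, below the 30th percentile of probe sets in each, and the part of such cells was not tested.

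**Figure D3:**
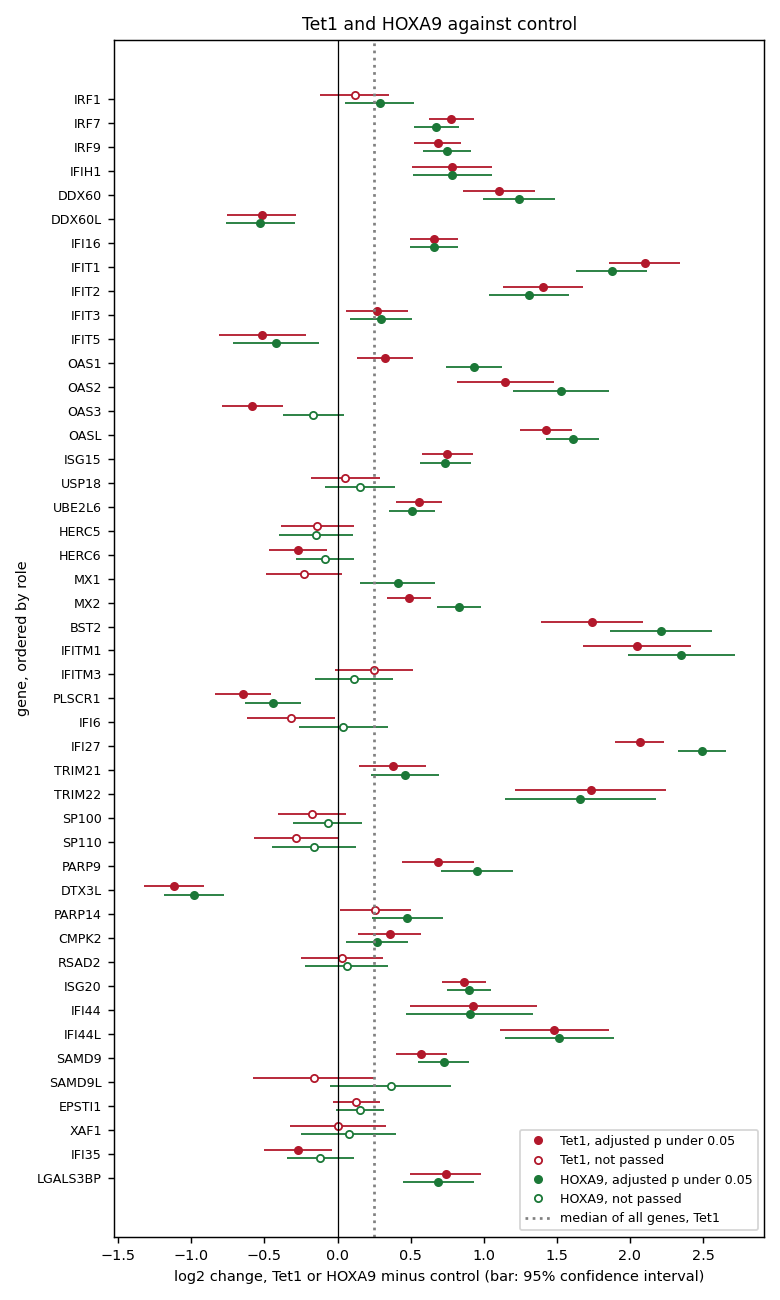
Points give the log2 difference from control for each of the 46 measured genes in Tet1 and in HOXA9 cells, with bars for the 95% interval of the limma fit. The dotted line marks the median over all genes in Tet1 (0.25). IFI27, IFITM1, BST2 and IFIT1 lie farthest to the right in both groups and DTX3L farthest to the left.

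IFIT1, which was low in shHMGA2, had the largest rise in Tet1. Its level was 10.02 and 9.92 in Tet1 and 9.71 and 9.77 in HOXA9, against 7.82, 7.70 and 8.09 in control. The difference was 2.10 in Tet1 (SE 0.11, 95% interval 1.85 to 2.35, adjusted p = 3.35e-08 in limma), a 4.29-fold rise, and 1.87 in HOXA9 (adjusted p = 8.08e-08 in limma), a 3.67-fold rise. IFI27, a small membrane protein of mitochondria and the nucleus that is used as a marker of interferon exposure, stood at 8.57 and 8.43 in Tet1 and at 9.0 and 8.86 in HOXA9, against 6.35, 6.52 and 6.44 in control. It rose by 2.07 in Tet1 (SE 0.08, adjusted p = 2.53e-09 in limma) and by 2.49 in HOXA9 (adjusted p = 8.55e-10 in limma), a 5.63-fold rise that was the largest of the 46 genes. In shHMGA2 the same gene stood at 6.27, 6.33 and 6.40, and only replicate 3 lay within the control range.

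IFITM1, which blocks virus entry at the cell membrane, stood at 11.25 and 11.16 in Tet1 and at 11.43 and 11.58 in HOXA9, against 8.87, 8.97 and 9.62 in control. It rose by 2.05 in Tet1 and 2.35 in HOXA9 (SE 0.17, adjusted p = 5.69e-07 and 2.52e-07 in limma). BST2 stood at 9.44 and 9.42 in Tet1 and at 9.84 and 9.97 in HOXA9, against 7.45, 7.62 and 8.0 in control, with rises of 1.74 and 2.21 (SE 0.16, adjusted p = 1.33e-06 and 2.71e-07 in limma). For each of these genes the lowest Tet1 or HOXA9 array was more than 1 unit above the highest control array. TRIM22, which marks viral proteins for degradation, stood at 8.18 and 8.18 in Tet1 and at 7.95 and 8.26 in HOXA9, against 7.11, 6.01 and 6.22 in control. It rose by 1.73 and 1.66 (SE 0.24, adjusted p = 3.2e-05 and 4.93e-05 in limma), with the widest spread among control arrays of any of these genes.

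IFI44L, a paralog of IFI44, stood at 8.06 and 8.17 in Tet1 and at 8.08 and 8.22 in HOXA9, against 7.06, 6.49 and 6.35 in control, and rose by 1.48 and 1.52 (SE 0.17, adjusted p = 7.79e-06 and 7.5e-06 in limma). OASL stood at 8.96 and 8.90 in Tet1 and at 9.08 and 9.15 in HOXA9, against 7.60, 7.51 and 7.41 in control, and rose by 1.43 and 1.61 (SE 0.08, adjusted p = 5.35e-08 and 2.88e-08 in limma). Neither gene had overlapping groups. Of all 18417 genes, 10773 lay wholly above and 5015 wholly below control in Tet1, and 10638 and 4614 in HOXA9. By role, 3 of 4 sensors, 3 of 4 IFIT genes and 3 of 4 oligoadenylate synthetases rose in each of the groups Tet1 and HOXA9, where 53.9% and 54% of all genes rose. Under quantile normalization each of these counts was 2 of 4 in Tet1, and in HOXA9 they were 2, 2 and 3. In the ISG15 system ISG15 rose by 0.75 in Tet1 and 0.74 in HOXA9 and UBE2L6 by 0.56 and 0.51. The rise of ISG15 was called under all 4 scalings and that of UBE2L6 under 3. USP18 differed by 0.05 and 0.15 with no call, but was called lower under 3 scalings in Tet1 and 2 in HOXA9. The enzyme genes ISG20 and CMPK2, which were not called in shHMGA2, rose by 0.86 and 0.36 in Tet1 and by 0.90 and 0.27 in HOXA9, but CMPK2 was called under only 1 scaling. XAF1 and SAMD9L, among the largest falls in shHMGA2, differed from control by 0.0027 and -0.16 in Tet1 and by 0.08 and 0.36 in HOXA9, with no call. With equal probe set medians XAF1 was called lower in Tet1 (-0.46) and HOXA9 (-0.38) and SAMD9L in Tet1 (-0.63), and SAMD9L was also lower in Tet1 with equal medians over the named genes (-0.48).

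A small group fell while most rose. DTX3L stood at 8.02 and 8.26 in Tet1 and at 8.13 and 8.43 in HOXA9, against 9.28, 9.20 and 9.30 in control. It fell by 1.12 in Tet1 (SE 0.09, adjusted p = 6.91e-07 in limma) and by 0.98 in HOXA9 (adjusted p = 2.16e-06 in limma), and no array of either group reached the control range. PLSCR1 stood at 8.11 and 8.18 in Tet1 and at 8.18 and 8.52 in HOXA9, against 8.78, 8.81 and 8.79 in control, and fell by 0.65 and 0.44 (adjusted p = 3.28e-05 and 0.000707 in limma). Without HOXA9 replicate 1 the difference of PLSCR1 in HOXA9 was -0.27, still with a call. OAS3 stood at 8.24 and 8.01 in Tet1, against 8.86, 8.58 and 8.69 in control, and fell by 0.58 (adjusted p = 0.000146 in limma). In HOXA9 it differed from control by -0.17 and was not called at the deposited scaling, but was lower under the other 3. Leaving out single arrays ended the calls of IFIT3, IFIT5, HERC6 and IFI35 in Tet1 (control replicates 1, 2 and 3 and both Tet1 replicates had such an effect) and of IRF1, IFIT3, IFIT5, MX1 and CMPK2 in HOXA9 (control replicates 2 and 3 and both HOXA9 replicates). DDX60L stood at 9.51 and 9.60 in Tet1 and at 9.45 and 9.63 in HOXA9, against 10.06, 10.05 and 10.10 in control, and fell by 0.52 and 0.53 (adjusted p = 0.000839 and 0.000768 in limma).

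In 3 pairs of neighbouring genes 1 gene rose and the other fell in both Tet1 and HOXA9 cells: IFIT1 and IFIT5, PARP9 and DTX3L, and DDX60 and DDX60L. The rise of PARP9 in Tet1 was called under 2 of the 4 scalings and the other changes under all 4. The 46 genes hold 12 pairs that lie next to each other in the RefSeq order of protein-coding genes, with 23 genes in them. The difference between the 2 probe sets of a pair was taken within each array, which removes any shift of a whole array, and its change from control was followed. IFIT1 minus IFIT5 was 0.77 and 0.48 in Tet1 and 0.45 and 0.16 in HOXA9, against -1.84, -2.32 and -1.81 in control, a change of 2.61 in Tet1 and 2.29 in HOXA9. In shHMGA2 it was -2.21, -2.49 and -2.32, a change of -0.35 with overlapping groups. PARP9 minus DTX3L, the pair with a joint promoter, was -0.56 and -0.86 in Tet1 and -0.37 and -0.78 in HOXA9, against -2.51, -2.67 and -2.38 in control. The change was 1.80 in Tet1 and 1.94 in HOXA9, and 0.02 in shHMGA2, where the arrays stood at -2.60, -2.60 and -2.27.

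DDX60 minus DDX60L changed by 1.62 in Tet1, 1.77 in HOXA9 and 0.16 in shHMGA2, and OAS2 minus OAS3 by 1.73, 1.69 and -0.27. IFITM1 minus IFITM3 changed by 1.80 in Tet1, 2.24 in HOXA9 and 0.43 in shHMGA2, and IFIT2 minus IFIT3 by 1.14, 1.01 and -0.40. In each of these 6 pairs the Tet1 and the HOXA9 arrays lay above all 3 control arrays. Such gaps were common for single genes: of 18417 genes, 10773 lay wholly above and 5015 wholly below control in Tet1, and 10638 and 4614 in HOXA9. An exact two-sided permutation test of 2 against 3 arrays cannot go below p = 0.2. That is what the Tet1 and the HOXA9 change of each of the 6 pairs gave. The test of 3 against 3 arrays cannot go below 0.1. The pairs are shown because they differed. The level of a probe set cannot be compared with that of another, and paralogs of similar sequence may share signal on the array.

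**Figure D4:**
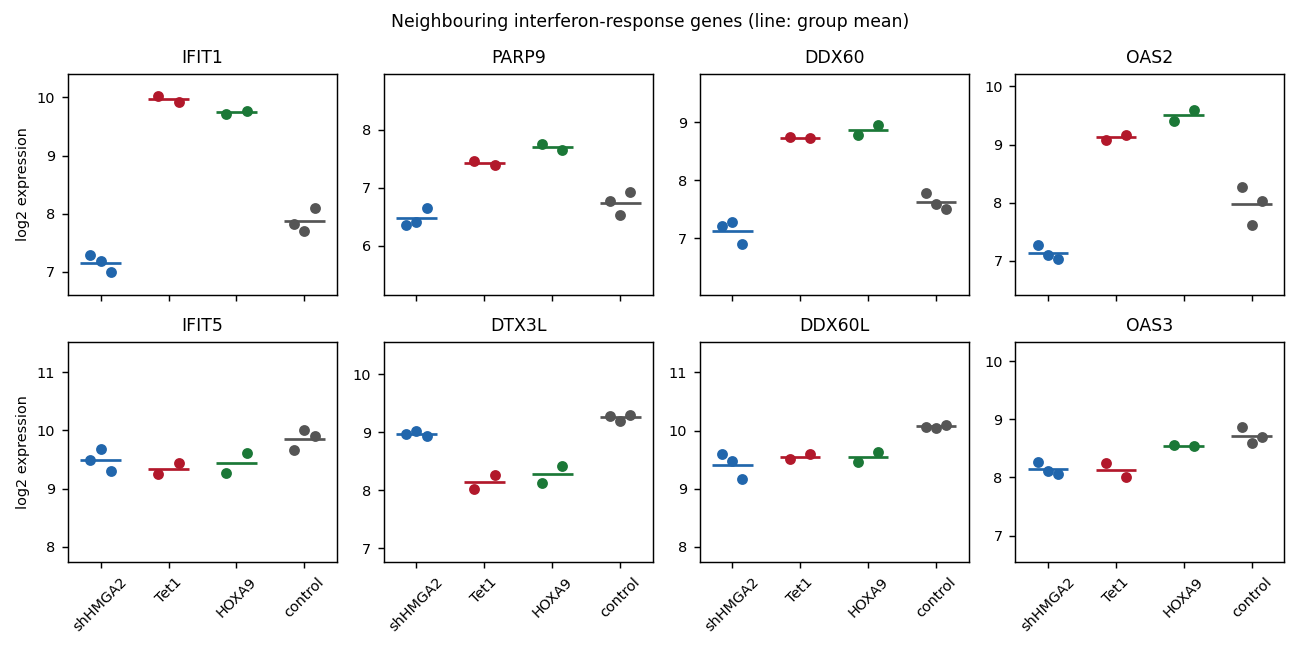
Each column of panels shows a pair of neighbouring genes, 1 above the other on axes of equal span, with the log2 level on each array for shHMGA2, Tet1, HOXA9 and control from left to right. The mean of the gene in the upper panel is higher in Tet1 and HOXA9 than in control and that of the gene in the lower panel is lower, though OAS3 was not called in HOXA9 at the deposited scaling, while in shHMGA2 the mean difference between the 2 genes changed by -0.35 to 0.16. Only changes from control within a panel can be read, not the level of a gene against the other.

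Across the 3 changed groups 19 genes were lower in shHMGA2 and higher in both Tet1 and HOXA9 than in control: IRF7, IRF9, DDX60, IFI16, IFIT1, IFIT2, IFIT3, OAS1, OAS2, OASL, UBE2L6, MX2, BST2, TRIM21, TRIM22, IFI44, IFI44L, SAMD9 and LGALS3BP. Under all 4 scalings 10 of them were: BST2, DDX60, IFI44L, IFIT1, IFIT2, IRF7, IRF9, OAS2, OASL and TRIM22. IFIH1, ISG15, IFITM1, IFI27, PARP9, CMPK2 and ISG20 rose in Tet1 and HOXA9 and were not called in shHMGA2, where PARP9 was lower under 2 of the other scalings. HERC5, IFITM3, IFI6, SP100, SP110, SAMD9L and XAF1 fell in shHMGA2 and were called in neither of the others at the deposited scaling. Under the other 3 scalings SP110 was called lower in both Tet1 and HOXA9. HERC5 was lower under 2 of them in Tet1 and 3 in HOXA9, SP100 under 2 in each, IFI6 under 2 in Tet1 and 1 in HOXA9, and XAF1 under 1 in each. SAMD9L was lower under 2 in Tet1, and IFITM3 was called under 1 in each, higher in Tet1 and lower in HOXA9. IRF1, MX1 and PARP14 fell in shHMGA2 and rose in HOXA9, but the rises of IRF1 and MX1 were called at the deposited scaling alone and that of PARP14 under 2 scalings. RSAD2 and EPSTI1 were called in no comparison at the deposited scaling. EPSTI1 was lower under 2 scalings in shHMGA2, 3 in Tet1 and 2 in HOXA9, and RSAD2 under 2 in Tet1 and 1 in HOXA9. The 3 comparisons share the control arrays, so a control array that stands high or low moves all of them.

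Genes with and without the ISRE letters both took part. Of the 27 measured genes with a match, 18 fell in shHMGA2 with a median difference of -0.36, and of the 12 with a window and no match, 11 fell with a median of -0.52. In HOXA9 17 of the 27 rose and 4 fell, with a median of 0.48, and 6 of the 12 rose and 0 fell, with a median of 0.28. In Tet1 15 of the 27 rose and 5 fell, with a median of 0.38, and 5 of the 12 rose and 2 fell, with a median of 0.06. Over all genes 54% rose and 21.6% fell in HOXA9, 53.9% rose and 23.2% fell in Tet1, and 13.6% rose and 12.6% fell in shHMGA2. No difference between these sets was tested.

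Tet1 and HOXA9 cells, which shared vector, selection, serum and array set, differed from each other in few of these genes. OAS1, whose enzyme makes the activator of RNase L, was the only member called, at 7.87 and 7.83 in Tet1 and 8.47 and 8.45 in HOXA9. It was lower in Tet1 by 0.61 (SE 0.10, 95% interval -0.82 to -0.40, adjusted p = 0.0182 in limma), against 0.32% of all genes called lower and 0.114% called higher. The call was made under all 4 scalings but ended without any of the 4 arrays (adjusted p 0.0785 to 0.207 in limma). MX1 was at 7.36 and 7.46 in Tet1 and 8.01 and 8.09 in HOXA9, a difference of -0.64 with an adjusted p of 0.0653 in limma. IFI27 differed by -0.43 (adjusted p = 0.0579 in limma) and MX2 by -0.34 (adjusted p = 0.0947 in limma). Of the 46 genes 34 lay below the median gene, and the median difference was -0.10 against 0.01 over all genes. At an unadjusted p under 0.05 there were 10 members, against 9.16% of all genes.

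**Figure D5:**
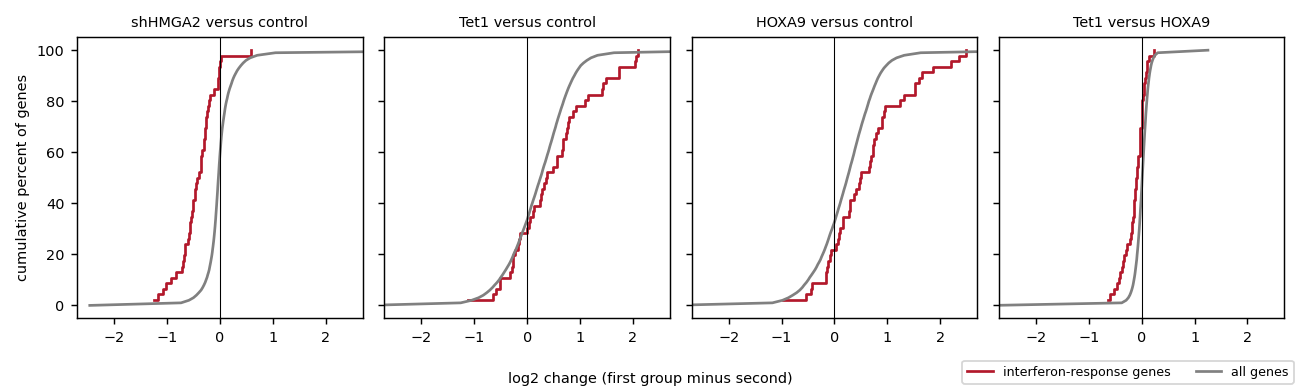
Each panel shows, for 1 comparison, the cumulative share of genes (vertical axis, percent) with a log2 difference at or below the value on the horizontal axis, for the 46 interferon-response genes and for all 18417 genes. The curve of the 46 genes lies to the left of that of all genes in shHMGA2 (median -0.42 against -0.03) and, by less, in Tet1 against HOXA9 (median -0.10 against 0.01). It runs out to 2.10 in Tet1 and 2.49 in HOXA9 against control.

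Other genes of the pathway were mixed in Tet1 and HOXA9, where 53.9% and 54% of all genes rose and 23.2% and 21.6% fell. Of 16 interferon genes 7 rose and 1 fell in each. The largest rise in Tet1 was that of IFNL3, an interferon of the lambda type. IFNL3 stood at 9.45 in Tet1, 9.17 in HOXA9 and 8.50 in control. IFNL3 was called under all 4 scalings. IFNL1 rose by 0.67 in Tet1, under 2 scalings. IFNA6 had the largest rise of this list in HOXA9, by 0.74, under 3 scalings. IFNA6 averaged 6.54 in HOXA9 and 5.79 in control, below the 30th percentile of probe sets in control, and 12 of the 16 lay below it in all 4 groups. Of 17 receptor and JAK-STAT genes 7 rose and 7 fell in Tet1 and 7 rose and 6 fell in HOXA9. The phosphatase PTPN6 rose by 1.02 in Tet1 and 1.12 in HOXA9, and the interferon gamma receptor chain IFNGR2 by 1.00 and 1.07. Of 19 sensing genes 7 rose and 7 fell in Tet1 and 6 rose and 6 fell in HOXA9, with the DNA sensor AIM2 up by 1.48 and 1.64 and TRIM25, a ubiquitin ligase that acts on the RNA sensor RIG-I, at -1.21 and -1.03. Of 15 antigen presentation genes 6 rose and 2 fell in Tet1 and 7 rose and 2 fell in HOXA9. The MHC class I light chain B2M rose by 1.12 and 1.19. The peptide transporter TAP2 fell by 0.91 in Tet1 and the immunoproteasome subunit PSMB10 rose by 0.84 in HOXA9. Of 46 other interferon-stimulated genes 18 rose and 11 fell in Tet1 and 19 rose and 11 fell in HOXA9. The death ligand TNFSF10 (TRAIL) rose by 2.15 and 2.40, and the lysosomal reductase IFI30 fell by 2.03 and 2.06. The level of AIM2 in control (5.63) was below the 30th percentile of probe sets. Each gene named here from the last 4 lists was called in the same direction under all 4 scalings, but the counts moved. With equal probe set medians 1 of the 16 interferon genes, 6 of 17, 1 of 19, 3 of 15 and 7 of 46 rose in Tet1, and 10, 11, 13, 9 and 27 fell. In HOXA9 2, 5, 1, 3 and 8 rose under that scaling, and 10, 11, 13, 8 and 28 fell. No gene of these lists was called between Tet1 and HOXA9.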

How the data were processed

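The authors deposited log2 expression values of 33297 probe sets on Affymetrix Human Gene 1.0 ST arrays in 12 columns, and the submitters' processing notes name RMA and R 2.11. This method corrects background, normalizes between arrays and summarises probes. The sources used here do not say if the 12 arrays went through it in 1 run. Replicate 3 of Tet1 and of HOXA9 equalled the mean of the other columns of its group within 1e-06 and was left out. Of the probe sets 19460 have 1 gene symbol in the platform annotation, 1754 have several and 12083 are not listed. The brightest probe set with 1 symbol was taken per gene (18417 genes, no filter on dim probe sets). The 4 groups were fitted with lmFit and eBayes of limma 3.58.1 in R 4.3.3, with 6 residual degrees of freedom and 5.65 from the prior, two-sided, with Benjamini-Hochberg adjustment over all genes. P-values measure the spread between these arrays, whose small number limits the precision.

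The genes, their role groups and the pathway and marker lists were chosen with earlier results of these data known. Values per array are given for the 8 largest called changes in shHMGA2, the 6 in Tet1, the 6 in HOXA9, those called between Tet1 and HOXA9, and up to 3 called against the main direction of a comparison. Up to 2 called genes were named per pathway list. IFIT5, MX1, IFI27 and MX2 in some comparisons, the other neighbour pairs and genes that rest on single arrays were named after their values were seen. Replicate numbers are not known to pair the samples. Same-numbered deviations correlated at 0.16, 0.14 and 0.002 between shHMGA2 and control, and differently numbered ones at -0.17 to 0.04. These weak values do not settle the question. Alternatives were other scalings, probe set choice, a filter, all 12 columns, fits of 2 groups, an intensity trend, a replicate block and left-out arrays. The list of luminal markers had 0 higher and 1 lower of 8 in shHMGA2, and the immune markers 1 higher and 1 lower of 9, where 13.6% of all genes rose and 12.6% fell.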

Additional observations from a re-analysis of the deposited data

How the results depend on the processing

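The counts of called interferon-response genes against control stayed within 1.5 times of those reported under the mean of all probe sets per gene, the filter on dim probe sets and the intensity trend, in all 3 comparisons. In shHMGA2 the fits gave 36 to 37 lower under the other scalings, and left-out arrays gave 27 to 35 lower, 1 to 2 higher and 28 to 36 called. In the fit of shHMGA2 and control alone, IRF9, IFIT5, OAS1, OASL, HERC5, IFI6 and TRIM22 lost their calls (adjusted p 0.0522 to 0.088 in limma). Left-out arrays gave 25 to 28 higher, 4 to 9 lower and 30 to 34 called in Tet1, and 25 to 30 higher, 3 to 4 lower and 29 to 34 called in HOXA9. The lower count in Tet1 was 12 under quantile normalization, 18 with equal probe set medians and 15 with equal medians over named genes (a scaling chosen after seeing the data), and the higher count was 15 with equal probe set medians. The lower count in HOXA9 was 10, 16 and 10 under the same scalings. Between Tet1 and HOXA9, 3 genes were lower under quantile normalization, 2 with equal probe set medians, 5 with all 12 columns and 4 in the fit of the 2 groups alone, and 0 in each fit with a left-out array. The replicate block gave 34 called in shHMGA2 (33 lower), 35 in Tet1, 35 in HOXA9 and 1 between them. The numbers are not known to pair the samples.

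Signs that turned are listed where the gene was called in the reported fit or in the other setting. They were those of small changes across the array sets, and 1 within them. Turns with no call in either fit are left out. In Tet1 against control, quantile normalization gave -0.084 for OAS1, -0.42 for USP18, -0.079 for MX2, -0.031 for CMPK2, -0.36 for RSAD2 and -0.26 for EPSTI1. Equal probe set medians gave -0.35 for IRF1, -0.19 for IFIT3, -0.14 for OAS1, -0.41 for USP18, -0.090 for TRIM21, -0.11 for CMPK2, -0.44 for RSAD2, -0.34 for EPSTI1 and -0.46 for XAF1, and equal gene medians -0.043 for IFIT3, -0.26 for USP18 and -0.19 for EPSTI1. In HOXA9 against control, quantile normalization gave -0.066 for IRF1, -0.29 for USP18, -0.13 for CMPK2 and -0.25 for EPSTI1. Equal probe set medians gave -0.17 for IRF1, -0.16 for IFIT3, -0.30 for USP18, -0.044 for MX1, -0.34 for IFITM3, -0.42 for IFI6, -0.19 for CMPK2, -0.39 for RSAD2, -0.30 for EPSTI1 and -0.38 for XAF1, and equal gene medians -0.021 for IRF1, -0.0084 for IFIT3 and -0.039 for CMPK2. IFITM1 in shHMGA2 ran from -0.15 without control replicate 1 to 0.22 without control replicate 3. Equal medians shift whole arrays by their construction. Quantile normalization also changes the differences between genes: the median of the 46 genes minus that of all genes was 0.13 in Tet1 and 0.35 in HOXA9 under it, against 0.12 and 0.25 under the other scalings. The causes of the other differences were not tested. RSAD2 and EPSTI1 were dim in all groups.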

Other observations

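Targets of NF-kB, a factor of inflammatory signalling that many of the same sensors feed, were also followed, with 20 of 22 measured. In shHMGA2 2 of the 20 (10%) rose and 7 (35%) fell against control, where 13.6% of all genes rose and 12.6% fell. The largest change was a fall of 2.21 on the log2 scale for the chemokine CCL2, while the cytokine IL1A rose by 1.85. In Tet1 13 of the 20 (65%) rose and 4 fell against control, where 53.9% of all genes rose and 23.2% fell, with the neutrophil chemokine CXCL8 up by 2.24 and CCL2 down, at -2.79. In HOXA9 12 (60%) rose and 4 fell against control, where 54% of all genes rose and 21.6% fell, with the adhesion molecule ICAM1 up by 1.66 and CCL2 down, at -2.92. With equal probe set medians 7 rose and 7 fell in Tet1 and 5 rose and 7 fell in HOXA9, and the changes of CXCL8 and ICAM1 and the fall of CCL2 were called under all 4 scalings. IL1A averaged 7.97 in shHMGA2 and 6.12 in control, below the 30th percentile of probe sets in control. Between Tet1 and HOXA9 CXCL8 was the only one of the 20 called, 0.72 higher in Tet1 (adjusted p = 0.0301 in limma).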
